A study of Mus musculus with 11 samples.

Results

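The genes described here are 10 chemokine ligands of the mouse (Cxcl1, Cxcl2, Cxcl5, Cxcl10, Cxcl12, Cxcl14, Cxcl16, Cx3cl1, Ccl2 and Ccl5) among the 53801 genes quantified in cultures of hippocampal neural stem cells (NSCs). They are chemokine genes selected on a list drawn up with the measured 4HBP response in proliferation medium in view, several of them near 0 in EtOH cultures, and were matched to the gene identifiers through the GENCODE annotation. Values of that comparison are therefore given as a description without a test, and tests were made on the other comparisons. The choice had no numerical threshold. The NSCs were primary cells from the hippocampus of embryonic day 14.5 mice, cultured with 4HBP at 1 µM or with its vehicle EtOH over 7 days. Proliferation medium held EGF and bFGF and was used for 3 4HBP and 3 EtOH libraries. Differentiation medium had neither growth factor and was used for 3 4HBP and 2 EtOH libraries. The sample labels call the compound 4-Hydroxybenzoic acid, whereas the study's text calls it 4-hydroxybenzophenone. The sources used here do not say whether replicates came from separate embryos or cultures, so p-values measure only the spread between these libraries, which may be technical.

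Chemokines are small secreted or membrane-tethered proteins that steer migrating cells through G protein-coupled receptors. Inflammatory ligands such as Cxcl1 and Ccl2 are usually near silent until NF-κB or interferon signalling switches them on, and they recruit neutrophils, monocytes or T cells. Homeostatic ligands such as Cxcl12 are made constantly, and in the developing hippocampus Cxcl12 guides progenitors that carry Cxcr4. Cx3cl1 and Cxcl16 are anchored in the membrane of the producing cell and are released by the proteases Adam10 and Adam17.

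Upstream sequences are shown for the ligands that were higher with 4HBP in proliferation medium and had an entry, and for Cxcl14 as a ligand that was not. RefSeq (build GRCm38.p6) listed the start region of 6 of the 10 genes, namely Cxcl1, Cxcl2, Cxcl10, Cxcl12, Cxcl14 and Cx3cl1. Cxcl5, Cxcl16, Ccl2 and Ccl5 had no entry. Windows of 250 bases upstream were searched on both strands for the NF-κB consensus, the interferon-stimulated response element (ISRE) core (GAAA repeated after a gap of 2 bases), the AP-1 site TGANTCA, the TATA box TATAAA and the CHOP-ATF4 site TGATGNAA. Capitals mark matches, and the printed stretch stops before the first annotated base of the gene. The windows lie at chr5:90890995-90891240 (plus strand) for Cxcl1, chr5:90903649-90903870 (plus) for Cxcl2, chr5:92348890-92349139 (minus) for Cxcl10 and chr13:56296552-56296801 (minus) for Cxcl14.
Cxcl1: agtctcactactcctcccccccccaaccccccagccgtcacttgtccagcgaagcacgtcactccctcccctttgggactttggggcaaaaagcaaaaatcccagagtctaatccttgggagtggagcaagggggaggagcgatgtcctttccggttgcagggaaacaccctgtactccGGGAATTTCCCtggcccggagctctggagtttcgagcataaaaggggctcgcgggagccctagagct
Cxcl2: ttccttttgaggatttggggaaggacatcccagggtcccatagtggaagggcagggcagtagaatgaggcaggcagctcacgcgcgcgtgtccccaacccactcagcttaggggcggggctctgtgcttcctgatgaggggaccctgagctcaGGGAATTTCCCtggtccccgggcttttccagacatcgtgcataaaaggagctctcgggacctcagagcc
Cxcl10: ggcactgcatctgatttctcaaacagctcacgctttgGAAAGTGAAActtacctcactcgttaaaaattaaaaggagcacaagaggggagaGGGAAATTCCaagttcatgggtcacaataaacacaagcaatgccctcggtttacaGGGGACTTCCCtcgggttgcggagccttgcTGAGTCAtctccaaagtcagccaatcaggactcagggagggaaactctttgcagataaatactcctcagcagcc
Cxcl14: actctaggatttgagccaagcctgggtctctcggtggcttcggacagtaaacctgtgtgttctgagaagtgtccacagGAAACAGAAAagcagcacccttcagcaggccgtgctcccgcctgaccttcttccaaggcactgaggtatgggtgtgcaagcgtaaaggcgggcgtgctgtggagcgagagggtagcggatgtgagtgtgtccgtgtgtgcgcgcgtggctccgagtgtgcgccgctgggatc

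Cxcl1 and Cxcl2 held the same NF-κB match, GGGAATTTCCC, which read as a match on both strands. It began 71 bases upstream of the RefSeq start in Cxcl1 and 97 bases upstream in Cxcl2. Cxcl10 held 2 separate NF-κB matches, GGGAAATTCC from 159 to 150 bases upstream and GGGGACTTCCC from 104 to 94 bases upstream. Cxcl10 also held the ISRE core GAAAGTGAAA at 213 bases and the AP-1 site TGAGTCA at 74 bases upstream. The Cxcl14 window held an ISRE core, GAAACAGAAA, at 172 bases upstream, and no NF-κB match. Neither Cxcl12 nor Cx3cl1 held an NF-κB match in this window. Across 32851 promoter windows of the same length, 7.251% held the NF-κB consensus, 2.977% the ISRE core, 6.749% the AP-1 site, 12.368% the TATA box and 3.452% the CHOP-ATF4 site. These matches describe letters only, and binding was not measured.

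The libraries held between 20822921 and 23438463 expected counts, the fragments that RSEM assigned to genes, so that 3 counts correspond to 0.128 to 0.144 CPM, the count scaled to the library total. A count of 0 therefore allows a level of up to 0.144 CPM, and floors and intervals given here cover counting error only. Replicates in proliferation medium varied more (biological coefficient of variation 0.117) than in differentiation medium (0.0368). Replicate 3 of 4HBP in proliferation medium stood apart from its group, with a mean chi-square per gene of 25.6 and 23 against replicates 1 and 2, which differed by 5.62 from each other. That library had a lower level of the oligodendrocyte gene Mbp, at 0.595 of the mean CPM of the other 2. It held the highest Cxcl1, Cxcl2, Cxcl5, Cxcl10 and Ccl2 of its group and the lowest Cxcl12, Cxcl14 and Cx3cl1. Values of the ligands are therefore given with and without it.

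Of the 10 ligands, all had counts in at least 1 library, 4 (Cxcl10, Cxcl12, Cxcl14 and Cx3cl1) had counts in all 11, and 9 passed the filter on low counts, Ccl5 being the exception. In proliferation medium, the CPM ranges of 5 of the 9 (Cxcl1, Cxcl2, Cxcl5, Cxcl10 and Ccl2) did not overlap between 4HBP and EtOH, as for 30.0% of the 15920 genes tested. That count follows from how the set was drawn up and is no result about it. In differentiation medium 0 of the 9 had an edgeR adjusted p under 0.05 for 4HBP against EtOH, and no gene of the 15920 did (0.0%). In EtOH, 4 of the 9 passed between media, 3 higher and 1 lower in differentiation medium, against 61.4% of all genes, 30.8% higher and 30.6% lower. The CPM ranges of 8 of the 9 did not overlap between media, and those of 76.6% of all genes did not. Several of the 9 passed the filter only through libraries outside that comparison. A fit of the 5 EtOH libraries alone tested 4 ligands, Cxcl2 and Cxcl16 not among them, and called 2 (Cxcl12 and Cxcl14). Bulk RNA cannot tell fewer producing cells from less RNA per cell.

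**Figure D1:**
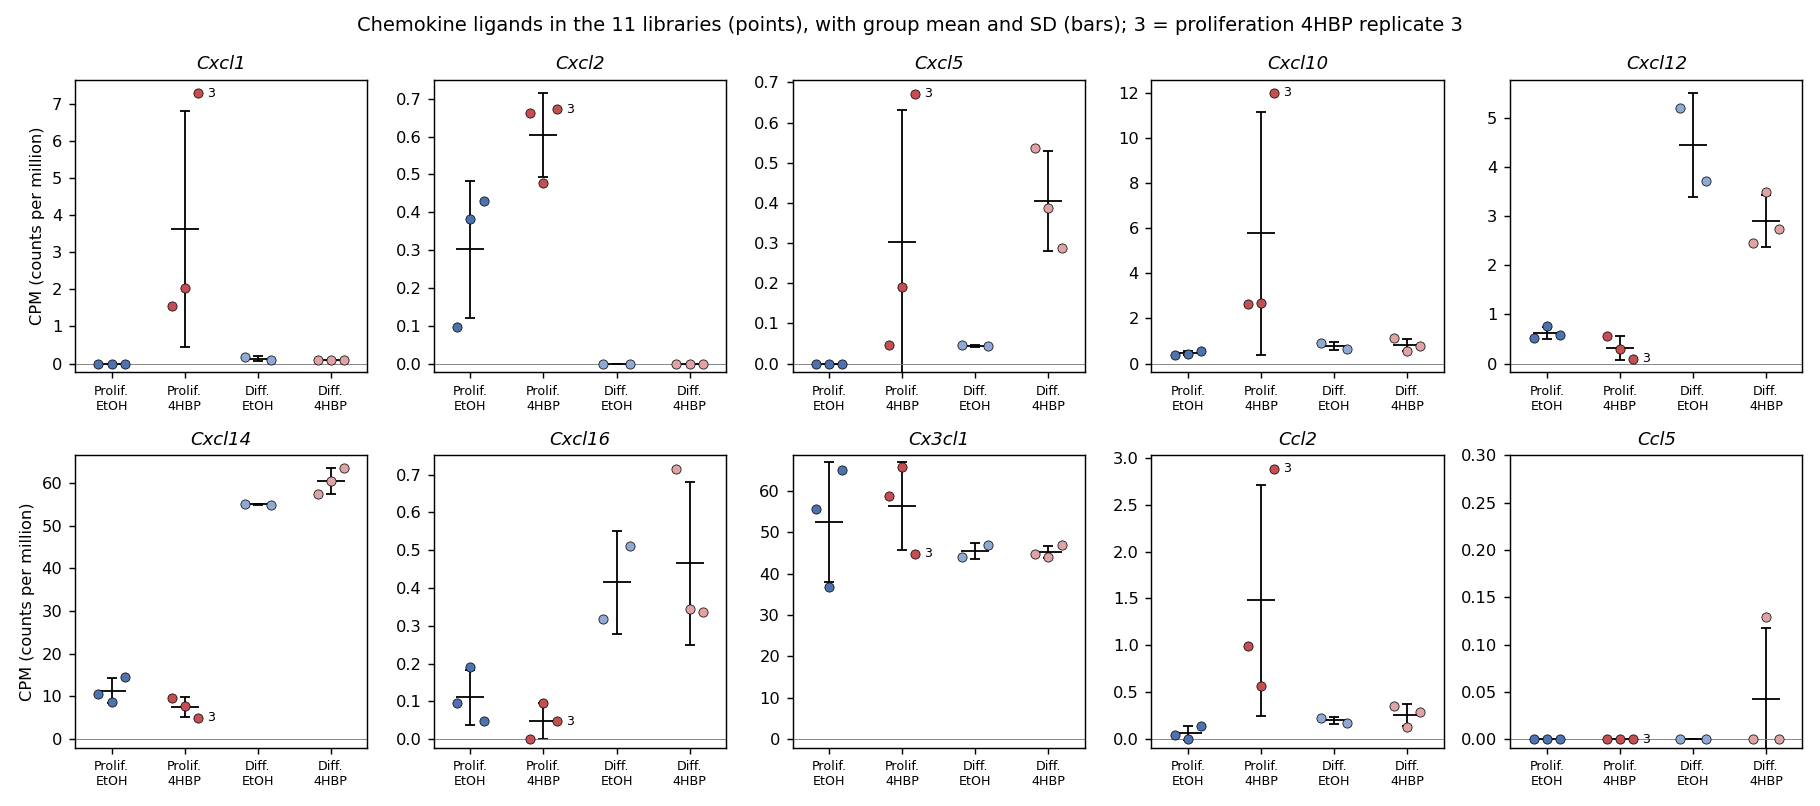
CPM of the 10 chemokine ligands in each of the 11 libraries, with 1 panel per gene, 1 point per library, and the group mean and SD as bars (3, 3, 2 and 3 libraries), each axis starting at or just below 0. Cxcl1, Cxcl10 and Ccl2 are high in the 3 proliferation 4HBP libraries, most of all in replicate 3 (marked 3), whereas Cxcl12 and Cxcl14 are high in differentiation medium and Cx3cl1 is at a like level in all groups.

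The ELR CXC ligands Cxcl1, Cxcl2 and Cxcl5 attract neutrophils through the receptor Cxcr2. Cxcl1 (chr5:90891241-90893115, plus strand, mm10) had 33, 43 and 152 counts in the 4HBP libraries in proliferation medium and 0 in all 3 EtOH libraries. The groups did not overlap. Its mean was 3.63 ± 3.18 CPM (SD, n = 3) with 4HBP, which is at least 25.4-fold above the floor of 3 counts per EtOH library, and at least 12.6-fold without replicate 3. In differentiation medium Cxcl1 had 2, 2 and 2 counts with 4HBP and 4 and 2 in EtOH, a ratio of 0.683 with an exact 95% interval of 0.183 to 2.56. The edgeR test gave an adjusted p of 1.0 (log2 fold change -0.51, SE 1.29). Its 4 and 2 counts in EtOH against 0, 0 and 0 in proliferation medium had an edgeR adjusted p of 0.101. DESeq2 gave 0.0222 for the same counts, and edgeR without the filter gave 0.00601, so this call depended on the test.

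Cxcl2 (chr5:90903871-90905938, plus strand) lies 12.6 kb from Cxcl1. It had 14, 10 and 14 counts with 4HBP and 2, 8 and 9 counts in EtOH in proliferation medium. All 3 4HBP libraries were above all EtOH libraries, at 0.603 ± 0.110 against 0.302 ± 0.181 CPM (SD, n = 3 each), a ratio of 2.0, or 1.88 without replicate 3. In differentiation medium Cxcl2 had 0 counts in all 5 libraries. Against EtOH in proliferation medium it was therefore at least 2.28-fold lower in differentiation medium, with an edgeR adjusted p of 0.00556. Limma on log2(CPM+1) gave 0.149. Cxcl2 passed the filter through the 4HBP libraries in proliferation medium and was not tested in the fit of the EtOH libraries alone. Of the 40-base words in Cxcl2 transcripts, 6.45% also occur in Cxcl3, which was at 0 in all libraries.

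Cxcl5 (chr5:90759360-90761624, plus strand) was at the edge of detection. In proliferation medium it had 1, 4 and 14 counts with 4HBP and 0 in all 3 EtOH libraries, at least 2.12-fold above the floor. Without replicate 3 the remaining 1 and 4 counts allow no fold. In differentiation medium Cxcl5 had 12, 9 and 6 counts with 4HBP and 1 and 1 in EtOH, without overlap between the groups. The ratio was 9.23, with an exact 95% interval of 2.32 to 80.1. The edgeR log2 fold change of 3.05 (SE 1.08) had an unadjusted p of 0.0172 and an adjusted p of 1.0, and 4.05% of all genes had an unadjusted p under 0.05. Cxcl5 passed the filter only through 4HBP libraries, where it was high, so its p-values and interval are given as a description. It did not pass in any of the 7 alternative tests that kept it, with adjusted p from 0.27 to 1.0. The receptor Cxcr2 had between 1.01 and 7.76 counts per library and was not tested because it failed the filter.

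Cxcl10 (chr5:92346638-92348889, minus strand) is the interferon-inducible ligand of Cxcr3, which draws activated T cells. It had 56, 56 and 251 counts with 4HBP and 8, 9 and 12 in EtOH in proliferation medium, again without overlap. The means were 5.79 ± 5.42 and 0.461 ± 0.0996 CPM (SD, n = 3 each), a ratio of 12.5, and 5.76 without replicate 3. In differentiation medium Cxcl10 had 25, 13 and 16 counts with 4HBP and 20 and 15 in EtOH, which overlapped. The ratio of 1.05 (log2 fold change 0.09, SE 0.73) had an edgeR adjusted p of 1.0. The fitted difference of the 4HBP effect between media was 3.49 (SE 0.97, log2), given without a test, where 4.49% of all genes differed by the edgeR test. The ratio between media in EtOH was 1.68, with an edgeR adjusted p of 0.494. Art3, which overlaps Cxcl10 on the other strand, had between 2 and 18 counts, and in the 4HBP libraries in proliferation medium 9, 3 and 2, where Cxcl10 was highest. Cxcr3 had 0 counts in every library.

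Ccl2 (chr11:82035571-82037453, plus strand) recruits monocytes through Ccr2. It had 21, 12 and 60 counts with 4HBP and 1, 0 and 3 in EtOH in proliferation medium. The lowest 4HBP library was above the highest EtOH library, with a ratio of pooled counts of 23.2 (exact 95% interval 8.77 to 87.0), and 12.3 (4.38 to 47.8) without replicate 3. In differentiation medium Ccl2 had 8, 3 and 6 counts with 4HBP and 5 and 4 in EtOH, a ratio of 1.3 with an edgeR adjusted p of 1.0. The ratio between media in EtOH was 3.12 (0.871 to 13.9), with an edgeR adjusted p of 0.291. Ccl5 (chr11:83525778-83530518, minus strand), a T cell and monocyte attractant, had 3 counts in replicate 2 of 4HBP in differentiation medium and 0 counts in the other 10 libraries. No fold can be given for it. Ccr2 had 1 count in 1 library in all.

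Replicate 3 of 4HBP in proliferation medium held 4.04 times the mean Cxcl1 CPM of the other 2 libraries of its group, 4.53 times the Cxcl10, 3.68 times the Ccl2 and 5.65 times the Cxcl5. Cxcl2 was only 1.18 times as high there. The Toll-like receptor gene Tlr2 was 4.73 times as high and the NF-κB inhibitor Tnfaip3 2.41 times as high in the same library. The part of its other differences in these values was not tested. The direction of Cxcl1, Cxcl10 and Ccl2 was the same in replicates 1 and 2.

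**Figure D2:**
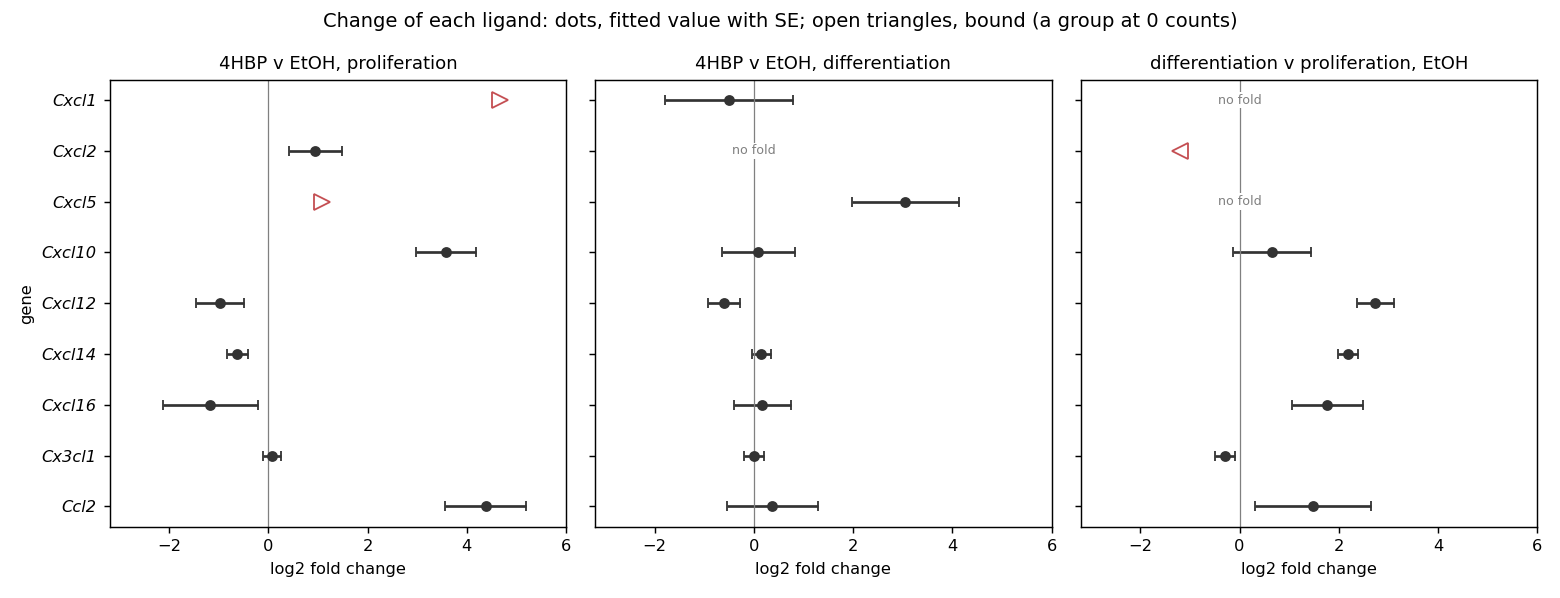
Log2 fold change of the 9 ligands that passed the filter in the 3 comparisons, with fitted values as dots with SE, bounds against the floor of 3 counts as open triangles where a group was at 0, and "no fold" where both groups were too low. In proliferation medium Cxcl1, Cxcl10 and Ccl2 lie far to the right for 4HBP against EtOH (Cxcl1 bound 4.67, Cxcl10 3.58, Ccl2 4.38), while between media Cxcl12 and Cxcl14 do (2.74 and 2.19).

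Cxcl12 (chr6:117168535-117181367, plus strand) signals through Cxcr4 and is scavenged by Ackr3. In EtOH it had 114 and 87 counts in differentiation medium and 11, 16 and 12 in proliferation medium. These are 4.46 ± 1.05 CPM (SD, n = 2) and 0.620 ± 0.125 CPM (SD, n = 3). Cxcl12 rose in differentiation medium with a log2 fold change of 2.74 (SE 0.37, edgeR adjusted p 3.12e-05). It passed in all 11 fits that left out a library and in all 8 alternative tests. With 4HBP in differentiation medium it had 55, 81 and 57 counts, all below both EtOH libraries. That difference of -0.60 (SE 0.32, log2) had an unadjusted edgeR p of 0.0816 and an adjusted p of 1.0. With 4HBP in proliferation medium Cxcl12 had 12, 6 and 2 counts, which overlapped EtOH at a ratio of 0.51, or 0.688 without replicate 3.

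The receptors of Cxcl12 were also higher in differentiation medium. Cxcr4 had 782 and 839 counts in EtOH in differentiation medium and 65, 72 and 57 in proliferation medium, and rose with a log2 fold change of 3.44 (SE 0.19, edgeR adjusted p 1.19e-08). Ackr3 had 211 and 242 against 92, 108 and 48 counts and rose by 1.25 (SE 0.24, log2, edgeR adjusted p 0.000527), a call that limma on log2(CPM+1) did not make (adjusted p 0.0699). Neither changed with 4HBP past the threshold. The log2 fold change of Cxcr4 was 0.12 (SE 0.22) in proliferation and 0.00 (SE 0.16) in differentiation medium. The duffy antigen receptor Ackr1, a decoy that binds Ccl2, Ccl5 and Cxcl1, had 222.45 and 190.16 against 45, 29 and 29 counts. It rose by 2.38 (SE 0.20, log2, edgeR adjusted p 4.16e-07).

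Cxcl14 (chr13:56288643-56296551, minus strand), a homeostatic ligand without a settled signalling receptor, was the most abundant ligand per length in differentiation medium. In EtOH it had 1205 and 1286 counts there and 223, 185 and 304 in proliferation medium, or 54.9 ± 0.0697 (SD, n = 2) against 11.3 ± 2.91 CPM (SD, n = 3). Cxcl14 rose with a log2 fold change of 2.19 (SE 0.20, edgeR adjusted p 9.71e-07) and passed in all 11 fits that left out a library. With 4HBP in differentiation medium it had 1283, 1401 and 1323 counts, where the CPM of the groups did not overlap (57.4 to 63.5 against 54.9 to 55.0). The log2 fold change of 0.15 (SE 0.19) had an edgeR adjusted p of 1.0. In proliferation medium it had 204, 163 and 105 counts with 4HBP, a ratio of 0.661 to EtOH with overlap, or 0.769 without replicate 3. The fitted 4HBP effect there was -0.62 (SE 0.21, log2).

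In differentiation medium the CPM ranges of 3 of the 9 ligands (Cxcl5, Cxcl12 and Cxcl14) did not overlap between 4HBP and EtOH, and those of 32.5% of all genes did not. The edgeR test called 0 genes there and 644 had an unadjusted p under 0.05. DESeq2 called 5 genes, voom 1 and limma on log2(CPM+1) 0. An edgeR fit of these 5 libraries alone called 395 genes and 0 of the 5 ligands it tested. Of those 5, Cxcl12 and Cxcl14 had an unadjusted p under 0.05 in that fit, as did 2460 of 15484 genes. Cxcl5 failed the filter in that fit and was not among the 5.

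**Figure D3:**
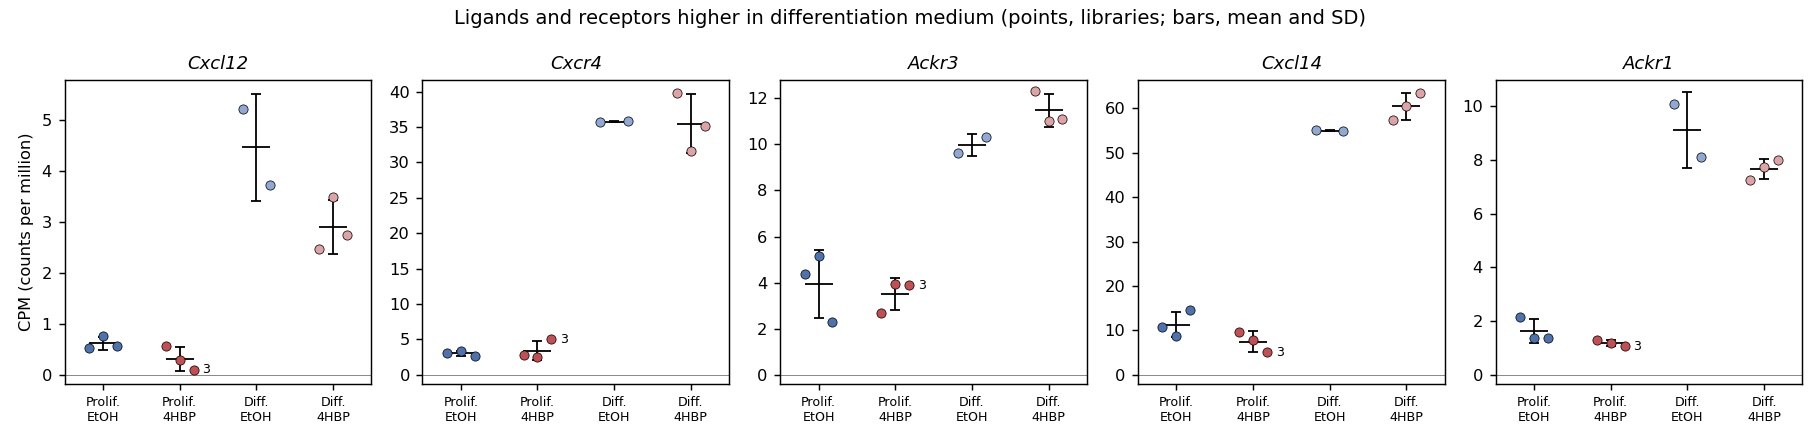
CPM of Cxcl12 and its receptors Cxcr4 and Ackr3, and of Cxcl14 and Ackr1, in each library (points) with group mean and SD (bars), axes starting at or just below 0. For each of the 5 genes, all libraries in differentiation medium lie above all libraries in proliferation medium.

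Cx3cl1 (chr8:94772009-94782427, plus strand), the neuronal ligand that signals to microglia through Cx3cr1, was the most abundant ligand per length in proliferation medium, and its level was much the same in the 4 groups. It had 1238, 1380 and 933 counts with 4HBP and 1165, 772 and 1360 in EtOH in proliferation medium. In differentiation medium it had 999, 1020 and 976 with 4HBP and 967 and 1099 in EtOH. Each pair of groups overlapped. The log2 fold change for 4HBP was 0.00 (SE 0.20, edgeR adjusted p 1.0) in differentiation medium, and between media in EtOH it was -0.29 (SE 0.20, edgeR adjusted p 0.223). Without EtOH replicate 2 in proliferation medium, the lowest Cx3cl1 library, the latter passed with an adjusted p of 0.0173 and a log2 fold change of -0.49. Cx3cr1 was at 0 in every proliferation library and had 1 to 6 counts in the differentiation libraries.

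Cxcl16 (chr11:70453983-70459984, minus strand) is the tethered ligand of Cxcr6. In EtOH it had 7 and 12 counts in differentiation and 2, 4 and 1 in proliferation medium, a ratio of 3.74. Cxcl16 passed narrowly (log2 fold change 1.77, SE 0.71, edgeR adjusted p 0.0444). It lost that call in 6 of the 10 fits that left out a library and kept Cxcl16 past the filter (adjusted p up to 0.25), including those without either EtOH library in differentiation medium, and in 4 of 7 alternative tests. Cxcl16 passed the filter only through libraries in differentiation medium, where it was higher, so its call is given as a description. It was not tested in the fit of the EtOH libraries alone. With 4HBP it had 16, 8 and 7 counts in differentiation medium (edgeR adjusted p 1.0) and 0, 2 and 1 in proliferation medium. Zmynd15, which overlaps Cxcl16 on the other strand, had between 0 and 14 counts. Cxcr6 had 2 counts in 1 library and 0 in the other 10. The shedding proteases were abundant, Adam10 at 2766 to 4508 and Adam17 at 1513.04 to 2114 counts. Both fell in differentiation medium in EtOH, Adam10 by 0.70 (SE 0.07) and Adam17 by 0.58 (SE 0.07) on the log2 scale (edgeR adjusted p 1.09e-06 and 9.93e-06).

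Levels were compared between genes as TPM, the abundance that RSEM scales for transcript length and depth. In EtOH in proliferation medium the order began with Cx3cl1 at 22.9 ± 6.04 TPM, Cxcl14 at 9.91 ± 2.31 and Cxcl10 at 0.687 ± 0.146 (SD, n = 3), and the ranges of these 3 genes did not meet. From Cxcl10 down to Cxcl16, at 0.120 ± 0.06 TPM, each gene's range met that of the next, through Cxcl2, Cxcl12 and Ccl2. Cxcl1, Cxcl5 and Ccl5 were listed at 0. With 4HBP in that medium Cx3cl1 stayed first at 24.5 ± 4.27 TPM, with a range that did not meet the next. It was followed by Cxcl10 at 8.70 ± 8.28, Cxcl1 at 6.52 ± 5.82, Cxcl14 at 6.38 ± 1.87 and Ccl2 at 3.26 ± 2.77. From Cxcl10 down to Ccl2, each gene's range met that of the next. In EtOH in differentiation medium the order was led by Cxcl14 at 56.8 ± 0.516 TPM, then Cx3cl1 at 24.9 ± 1.59 and Cxcl12 at 1.93 ± 0.488 (SD, n = 2). The same 2 genes led with 4HBP there, at 61.8 ± 3.19 and 24.6 ± 0.38 TPM (SD, n = 3). Cxcl14 and Cx3cl1 together took between 91.3% and 98.3% of the summed ligand counts in every library but replicate 3 of 4HBP in proliferation medium, where they took 67.8%.

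Neighbouring ligand genes did not share one pattern. Of the 10 ligand genes around Cxcl1 on chromosome 5, Ppbp, Pf4, Cxcl3, Cxcl15 and Cxcl9 had 0 counts in every library. Cxcl11, 1468.3 kb from Cxcl1 and next to Cxcl10, had 1 count in the highest library. Near Ccl2 on chromosome 11, Ccl7 lies 10.1 kb away and had 4, 3 and 8 counts with 4HBP and 0, 1 and 1 in EtOH in proliferation medium, a ratio of 7.49 (exact 95% interval 1.74 to 67.5), or 5.22 (0.994 to 51.5) without replicate 3. It failed the filter and was named after its counts were seen. Ccl3, 1612.3 kb away, had 5, 7 and 11 counts with 4HBP and 12, 10 and 13 in EtOH.

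**Figure D4:**
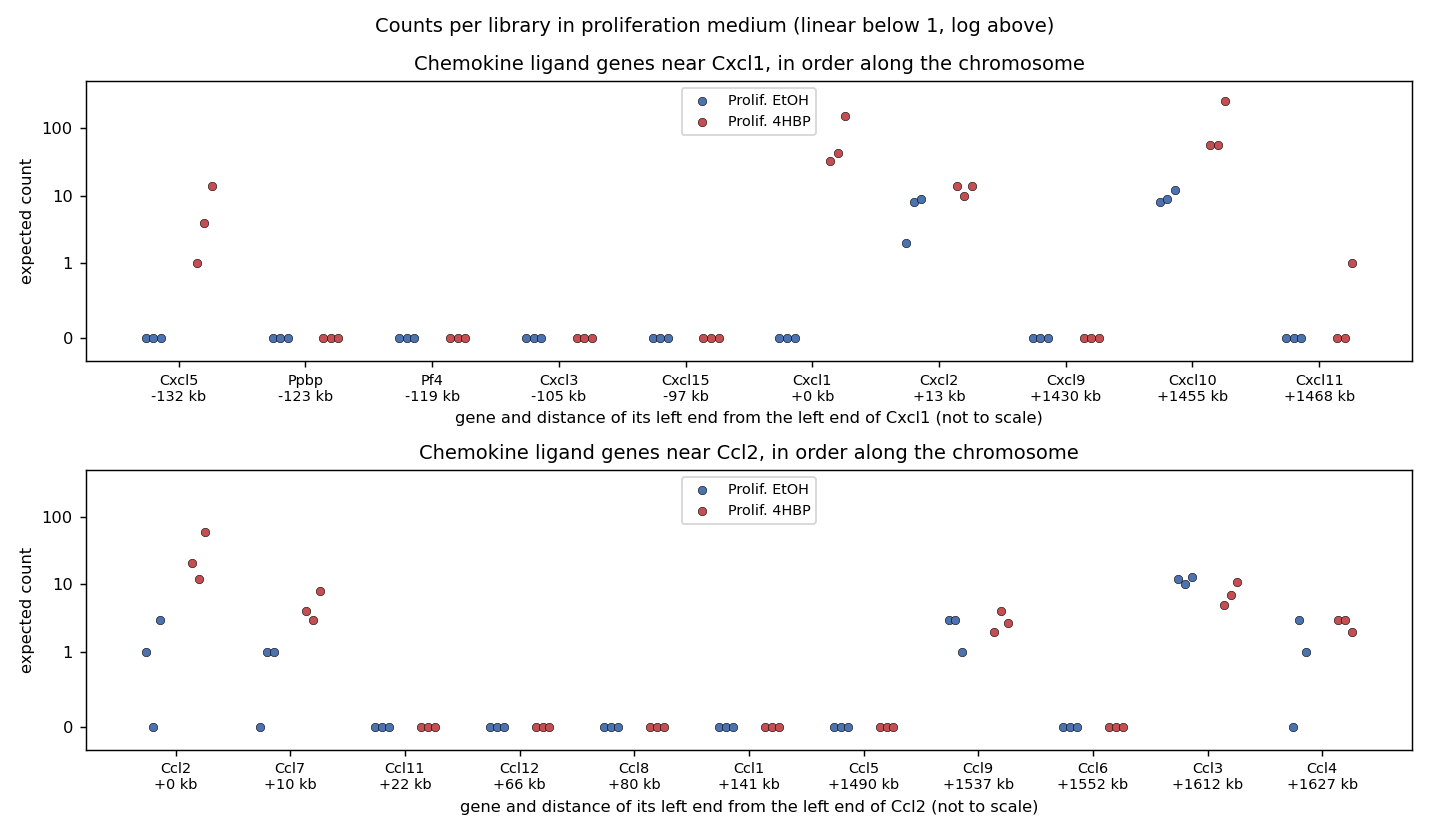
Expected counts of the chemokine ligand genes near Cxcl1 (top) and Ccl2 (bottom) in the 6 proliferation libraries, on an axis that is linear below 1 and logarithmic above, with genes in chromosome order and their distance from Cxcl1 or Ccl2 in kb. Cxcl1 and Ccl2 are higher with 4HBP, as are their nearest neighbours Cxcl2 and Ccl7 at lower counts, whereas Ppbp, Pf4, Cxcl3, Cxcl15 and Cxcl9 stay at 0.

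Of the other 30 chemokine ligands, 14 were at 0 in all libraries and 4 passed the filter. None of the 4 passed for 4HBP in either medium, with medians of 0.09 in proliferation and -0.12 in differentiation medium beside 0.00 and 0.01 over all genes (log2 fold change). Under EtOH, 1 rose and 1 fell in differentiation medium. Ccl27a, a skin-associated T cell attractant, rose by 0.86 (SE 0.27, log2, edgeR adjusted p 0.0145), without passing in limma on log2(CPM+1) (0.054) or without differentiation EtOH replicate 2 (0.139), and 50.55% of its 40-base words also occur in other genes, so its counts are uncertain. Ccl3, a macrophage inflammatory protein, had 0 and 2 against 12, 10 and 13 counts and fell (ratio 0.0792, exact 95% interval 0.00923 to 0.308, edgeR adjusted p 0.00196). Ccl3 passed the filter only through libraries in proliferation medium, where it was higher, so its call is given as a description. Of 24 chemokine receptors, 11 were at 0 in all libraries and 3 passed the filter (Cxcr4, Ackr1 and Ackr3). Their median log2 fold change between media was 2.38, beside 0.03 over all genes, and none passed for 4HBP.

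NF-κB is the transcription factor family that drives many inflammatory chemokines, and several of its inhibitors are themselves its targets. A list of 14 genes held NF-κB subunits, inhibitors and the IKK kinase complex genes Chuk, Ikbkb and Ikbkg. All 14 were tested, and 6 (42.9%) rose and none fell with 4HBP in proliferation medium. Chuk, Ikbkb and Ikbkg were not among the 6. Of all genes, 16.8% were called there and 8.59% rose. The median log2 fold change of the list was 0.36 beside 0.00 over all genes. Nfkbiz, an atypical inhibitor that also activates some targets, had 686, 678 and 1002 counts against 306, 257 and 355 (log2 fold change 1.33, SE 0.16, edgeR adjusted p 0.000239). Nfkb2 rose by 0.64 (SE 0.12, adjusted p 0.00423), its partner Relb by 0.88 (SE 0.17, adjusted p 0.00444) and the classical inhibitor Nfkbia by 0.56 (SE 0.12, adjusted p 0.00617), all on the log2 scale by edgeR. Nfkbie and Tnfaip3 also rose. This list was chosen with earlier results of these data known, so its shares and p-values are a description and no independent test. Rela, the gene of p65, missed the threshold with 4HBP in proliferation medium (log2 fold change 0.17, SE 0.06, edgeR adjusted p 0.0691). Without replicate 3 all 6 passed as well, and Rela also passed, as it did with library totals in place of TMM. A fit of the 6 libraries compared called 5 of the 6 (not Tnfaip3). Limma on log2(CPM+1) called none of the 14 at an adjusted p under 0.05. In differentiation medium none of the 14 passed, with a median of 0.00. In differentiation against proliferation medium, 3 rose and 4 fell under EtOH, 50.0% of the list beside 61.4% of all genes. Nfkbib rose by 0.87 (SE 0.08, log2, edgeR adjusted p 8.9e-07) and Nfkbia by 0.93 (SE 0.13, adjusted p 3.19e-05), whereas Rela fell by 0.67 on the log2 scale (SE 0.07, adjusted p 2.39e-06) and Bcl3 had 2 and 1 counts against 51, 41 and 88 (adjusted p 1.23e-05).

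**Figure D5:**
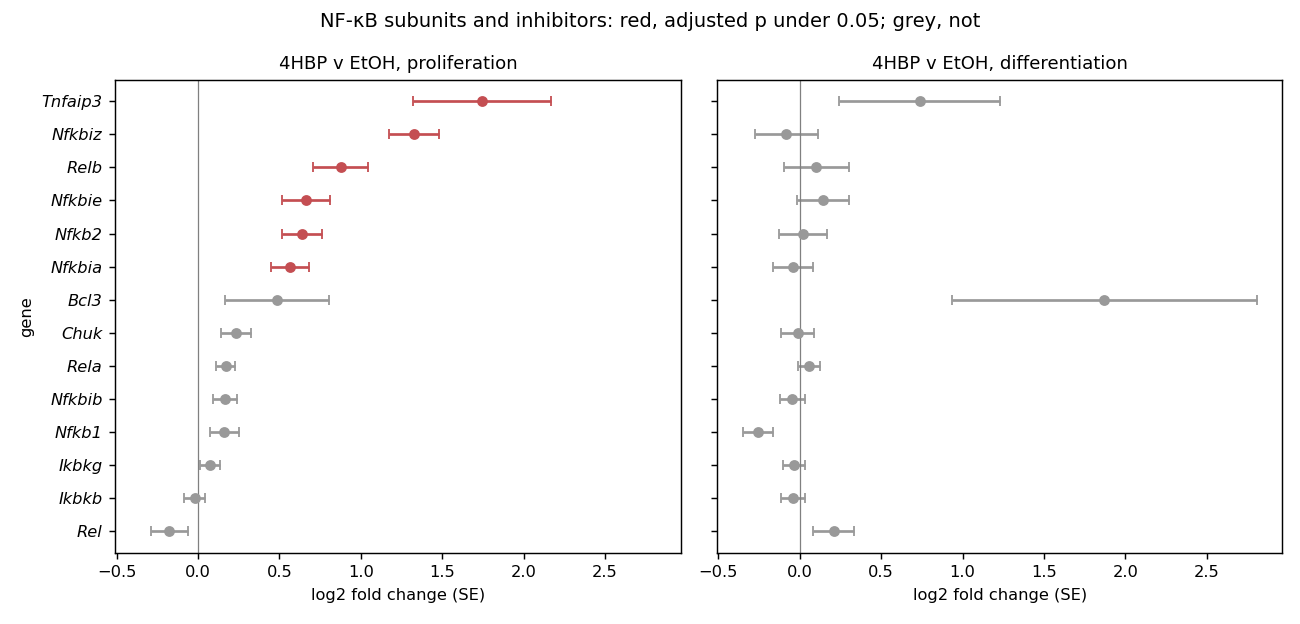
Log2 fold change (dots) with SE (bars) of the 14 genes of the NF-κB list (subunits, inhibitors and the IKK genes Chuk, Ikbkb and Ikbkg). Panels show 4HBP against EtOH in proliferation (left) and differentiation medium (right), red where the edgeR adjusted p is under 0.05. The 6 red genes are all on the left panel and to the right of 0, led by Tnfaip3 at 1.74 and Nfkbiz at 1.33.

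A list of 21 genes held inflammatory cytokines, their receptors and the Toll-like receptors Tlr2, Tlr3 and Tlr4. Of the 21, 14 were tested, and 3 (21.4%) rose with 4HBP in proliferation medium beside 8.59% of all genes. These were the interferon gamma receptor chain Ifngr2 (log2 fold change 0.73, SE 0.10, edgeR adjusted p 0.000561), the cytokine Lif (1.25, SE 0.30, adjusted p 0.0135) and Tlr2 (2.07, SE 0.57, adjusted p 0.027). Tlr2 had 25, 34 and 138 counts against 14, 19 and 12, with the highest in replicate 3, and passed neither without it nor without any 1 of the 3 EtOH libraries there, while Ifngr2 and Lif passed without replicate 3. A fit of the 6 libraries compared called only Ifngr2, and limma on log2(CPM+1) none of them. None passed in differentiation medium. This list, too, was chosen with earlier results of these data known, so its share and p-values are no independent test. The ligand-inducing cytokines were low or at 0. Tnf had 21, 16 and 23 counts with 4HBP and 10, 17 and 13 in EtOH in proliferation medium and 0 in all differentiation libraries, and Il1a, Il1b, Csf2 and Ifnb1 were at 0 in all libraries. Under EtOH, 3 rose and 5 fell between media, 57.1% of those tested beside 61.4% of all genes, with the gp130 receptor Il6st higher by 1.20 (SE 0.08, log2, edgeR adjusted p 3.97e-08) and Tnfrsf1a, the main Tnf receptor, lower, at -1.31 (SE 0.12, log2, adjusted p 6.45e-07). Of 6 chemokine-processing enzymes, 4 were tested. With 4HBP in proliferation medium Mmp14 fell by 0.45 on the log2 scale (SE 0.07, edgeR adjusted p 0.00175) and Mmp2, at 4, 13 and 10 against 0, 4 and 2 counts, rose (adjusted p 0.0442). Mmp2 passed in 2 of the 11 fits that left out a library, and not in the one without replicate 3.

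Markers of other cell types were measured beside the ligands, in lists also chosen with earlier results of these data known. With 4HBP in proliferation medium 16.8% of all genes were called, and 1301 of the 15920 tested were lower. Of 12 microglia and macrophage markers, Aif1, Ptprc, Itgam and Tmem119 had at most 2 counts in any library. The summed level of the 12 was 5.0 to 6.67 CPM with 4HBP and 4.09 to 6.59 CPM in EtOH in proliferation medium, most of it Cd68 and P2ry12, and none of the 2 tested passed for 4HBP. The 6 neutrophil and lymphocyte markers summed to at most 1 count per library. The 6 endothelial markers summed to 12.6 to 20.5 CPM with 4HBP and 12.3 to 20.6 CPM in EtOH in proliferation medium. Of these markers, Cdh5 and Cldn5 were at 0 throughout, and neither of the 2 tested (Flt1 and Kdr) passed for 4HBP. Of 8 mural, fibroblast and meningeal markers, 1 (Pdgfrb) fell with 4HBP in proliferation medium, though not without replicate 3, and of 4 choroid plexus and ependyma markers none passed. The 6 astrocyte markers summed to 5410 to 6140 CPM with 4HBP and 6900 to 7610 CPM in EtOH in proliferation medium, and 5 of the 6 fell there, with and without replicate 3, with log2 fold changes of -0.85 (Gja1), -0.68 (Gfap), -0.66 (Aqp4) and -0.31 (Aldh1l1) among them. Of 6 neural stem and radial glia markers 1 (Fabp7) fell, of 6 oligodendrocyte lineage markers 2 (Olig1 and Cspg4) fell, and of 6 neuronal markers none passed. A fit of the 6 libraries compared called 3 of the astrocyte markers (Aqp4, Gfap and Gja1) and none of Fabp7, Olig1 and Cspg4, and limma on log2(CPM+1) called none of these markers for 4HBP in that medium. The part of these shifts in the ligands' values was not tested.

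Between media in EtOH all 6 neural stem and radial glia markers fell, among them Vim by 1.77 and Nes by 2.57 on the log2 scale. Of 6 oligodendrocyte lineage markers 3 rose, with Mbp at 1.17. Of 6 astrocyte markers 3 rose and 3 fell, and of 6 neuronal markers 3 rose and 1 fell. Of all genes, 61.4% were called in this comparison, 30.8% higher and 30.6% lower. Cxcl12, Cxcl14 and Cxcr4 were higher in the same comparison. The summed mural, fibroblast and meningeal markers, cells known to make Cxcl12, were 32.2 to 34.7 CPM in differentiation and 8.5 to 13.4 CPM in proliferation medium in EtOH. Of the 4 of them tested, Pdgfrb rose by 5.29 and Col1a1 by 1.82, whereas Acta2 fell by 1.98 and Rgs5 fell by 1.66 on the log2 scale (edgeR adjusted p 1.47e-08, 0.0416, 0.000343 and 0.00297). In differentiation medium most of the sum was Pdgfrb, while Dcn, Lum, Col1a1 and Col1a2 had at most 13 counts in any library. Their part in the ligands' levels was not tested.

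Over the 11 libraries, the 5 tested genes whose log2(CPM+1) was most like that of Cxcl1 were Ostn (Pearson r 0.996), P2rx3 (0.991), Cxcl10 (0.985), Ifngr2 (0.979) and Rai14 (0.974). Ostn, the secreted peptide osteocrin, had 13, 16 and 37 counts with 4HBP and 0 in EtOH in proliferation medium and at most 1 in differentiation medium. P2rx3, an ATP-gated channel subunit, had 54, 66 and 173 counts with 4HBP and 6, 3 and 6 in EtOH in proliferation medium. Among the ligands, r with Cxcl1 was 0.956 for Ccl2, 0.701 for Cxcl2, 0.5 for Cxcl5 and 0.155 for Cx3cl1, and -0.634 for Cxcl14. These values share the same 11 libraries, of which only the 3 4HBP libraries in proliferation medium held more than 4 Cxcl1 counts, so they are a description only.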

How the data were processed

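RNA of 11 NSC cultures was sequenced as 150 bp read pairs from stranded mRNA libraries. The authors trimmed the reads with cutadapt and quantified them with RSEM 1.3.0 and Bowtie2 2.2.9 on mm10 (GRCm38) with GENCODE vM17 genes, and deposited per gene the expected counts (not normalized) and TPM (per length and depth). Whether counting used strand is not given in the sources used here, so overlapping genes on opposite strands are reported beside the ligands. Deposited FPKM values were not used.

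Expected counts were rounded, filtered by filterByExpr, scaled by TMM and tested in edgeR 4.0.16 (R 4.3.3; glmQLFit, glmQLFTest) with a mean for each of 4 groups over all 11 libraries, with Benjamini-Hochberg adjusted p under 0.05 over 15920 genes. SE is the absolute log2 fold change over the root of F. The study's limma test on log2(CPM+1) was an alternative, because that offset sets the size of change of genes near 0. Its calls here are at a Benjamini-Hochberg adjusted p under 0.05. The study instead called genes at p under 0.05 with a fold change cut-off, so the numbers of calls cannot be compared with the study's. Totals were 20822921 to 23438463 counts per library, so 3 counts, the floor, are 0.128 to 0.144 CPM. A fold against a group at 0 is a bound against 3 counts per library. Where the highest count of a group was at most 3, the pooled ratio is given with an exact 95% binomial interval.

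The ligands and the gene lists were chosen with earlier results of these data known. From each list, at most 4 genes past the threshold with the smallest p are named per comparison, the ligands and their receptors always (some items are not reported here), and for Cxcl1 the 5 most correlated genes. Duplicate libraries were looked for by chi-square and none were found. The tests were tested on simulated data. Alternatives were DESeq2 1.42.0 and its size factors, library totals, voom and limma 3.58.1, no filter, a replicate block, only the libraries compared, and each library left out in turn. Symbols and upstream positions came from GENCODE vM21 and RefSeq tables of the same build. Scripts ran in Python with pandas and scipy.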

Additional observations from a re-analysis of the deposited data

Results flagged for a closer look

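The effect of 4HBP differed between media in an edgeR test of the difference itself for 8 genes of the lists other than the ligands, where 4.49% of all genes differed. The ligands are left out, because their difference rests on the comparison from which they were chosen. The other lists were also chosen with earlier results of these data known, so these differences are a description. The values are log2 differences, the effect in proliferation minus that in differentiation medium. Nfkbiz, an NF-κB inhibitor and co-activator, differed by 1.41 and Ifngr2 by 0.67. The proteases Mmp14 and Adam17 differed by -0.62 and -0.36. The astrocyte genes Gja1, Aqp4 and Gfap differed by -0.82, -0.74 and -0.68, and the radial glia gene Fabp7 by -0.59.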

How the results depend on the processing

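With 4HBP in proliferation medium 2668 genes were called. Limma on log2(CPM+1) called 67 at an adjusted p under 0.05, while 4006 had an unadjusted p under 0.05. A fit of only the libraries compared called 1074 genes. Leaving out 1 library gave 1549 to 3009 genes. In differentiation medium 0 genes were called, DESeq2 called 5, voom 1, no filter 116, only the libraries compared 395, and leaving out 1 library 0 to 9; the ligands called were 0 of those each fit tested. Between media, 9771 genes (7907 to 10477 on leaving out 1 library) and 4 ligands (3 to 5, and 2 with only the libraries compared) were called. The difference of the 4HBP effect gave 715 genes, 264 with limma on log2(CPM+1), 1616 without a filter and 124 to 1100 on leaving out 1 library, with 124 without either EtOH library in differentiation medium. Deviations of same-numbered replicates correlated at -0.0612 to 0.018, which gave no sign that the numbers pair libraries. With 2 or 3 libraries per group, these values cannot exclude pairing. A replicate block called 1 gene in differentiation medium. Between media it took the call from Cxcl16 (adjusted p 0.0977) and gave one to Cxcl1 (0.0114), and with 4HBP in proliferation medium it took those of Mmp2, Cspg4 and Pdgfrb. The cause was not tested.

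Values that turned sign had missed the threshold throughout. With 4HBP in differentiation medium, Cxcl10 went from 0.09 to -0.33 and Ccl2 from 0.37 to -0.20 (log2) with the replicate block. Leaving out 1 library gave -0.21 to 0.35 for Cxcl10, -0.96 to 0.079 for Cxcl1 and -0.13 to 0.55 for Cxcl16 there, and in proliferation medium -0.23 to 0.27 for Cxcr4, lowest without 4HBP replicate 3, and -0.47 to 0.04 for Ackr3. Library totals in place of TMM moved the median log2 fold change of all genes between media to 0.114, from 0.026. Depth limits Cxcl1, Cxcl2, Cxcl5, Cxcl16, Ccl2 and Ccl5 most, since 3 counts are 0.128 to 0.144 CPM.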
